A study of Homo sapiens with 8 samples.

Results

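H/ACA small nucleolar RNAs were read on 8 whole-transcript arrays of ABCB5-sorted tumour cell lines. They were taken as every probe set annotated to 1 gene whose symbol begins with SNORA and a number, with the probe set of highest mean kept for each gene. This gave 61 SNORA genes, from 64 probe sets, among 18417 genes with a probe set of their own. A further 26 probe sets that name a SNORA gene beside other genes were not used.

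H/ACA RNAs fold into a pair of hairpins and are bound by dyskerin (DKC1), NHP2, NOP10 and GAR1. Most guide the conversion of chosen uridines of ribosomal RNA to pseudouridine in the nucleolus. In human cells nearly all are cut out of introns of a host gene after splicing, and many hosts code for ribosomal proteins or other proteins of translation, or are long RNAs with no protein product.

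The arrays came from 4 human tumour lines, each split by fluorescence sorting with an antibody against the transporter ABCB5 into an ABCB5-negative and an ABCB5-positive population, with 1 array for each population of each line. COLO741 and HCT116 are labelled colon carcinoma, HT29 colon adenocarcinoma and SW620 a lymph node metastasis of colon carcinoma. No cells were treated with a drug or edited, and all grew in the same serum-containing medium. One line is SW620 in the sample labels and SW480 in the design text of the series; it is called SW620 here, and which is right was not settled. The labels do not say whether the arrays of a line came from separate cultures. The p-values of the sort measure how the positive minus negative difference varies between the 4 lines. Those of the line comparisons rest on the same spread, with 1 sorted pair for each line. They do not cover the spread between cultures of a line, and part of the spread may be technical.

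Several labels were not matched by the transcripts on the arrays. In COLO741, 6 of 6 measured melanocyte markers (such as MLANA, PMEL and TYR) lay above 7.50, the level that 95% of olfactory receptor probe sets do not reach. The summed melanocyte level was 77.5 to 78.6 in COLO741 and 40.1 to 41.4 in the other lines, while the summed level of 7 epithelial markers was 55.4 to 56.7 in COLO741 and 84.5 to 94.9 elsewhere. The ABCB5 transcript was at 9.42 in the COLO741 array labelled negative and 8.14 in the one labelled positive, the reverse of the label order. It lay between 5.24 and 5.69 on the other 6 arrays, under the olfactory receptor median of 5.73. The labels come from an antibody against the protein, so the transcript alone does not show them to be wrong. The SW620 positive array had 5 of 7 leukocyte markers above 7.50, with a summed level of 59.0 against 48.2 to 49.7 on the other 7 arrays. "Positive" and "negative" below are the labels of the arrays.

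All levels are log2 values, and a difference of 1 is a doubling. Of the 61 genes, 41 had a mean level of at least 7.50 and 20 a lower one; 37 were above it on all 8 arrays and 12 below it on all 8. SNORA70F, with a mean of 5.16, failed the filter on low level and was not tested, which left 60. The annotated genes were 123 to 236 bases long, with a median of 134. Levels of different SNORA genes were not set against each other, since each probe set has its own brightness.

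In the sorted populations, most SNORA genes were slightly lower in the ABCB5-positive array, but none passed the test. With limma, the line as a block and Benjamini-Hochberg adjustment over 16910 genes, 0 of 60 were called, and the lowest adjusted p was 0.898. The share called among all genes tested was 0%. At an unadjusted p under 0.05, 9 members were lower and 0 higher, against 1.78% lower and 2.62% higher among all genes. The mean difference was below 0 in 52 of 60 members, against 52.0% of all genes. The median difference of positive minus negative was -0.12, against -0.00 over all genes tested, and single members lay between -0.37 and 0.12. Fewer cells that express a snoRNA and less of it per cell cannot be told apart in such bulk samples.

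The direction was counted line by line. Among all 61 genes, 12 were lower in the positive array in all 4 lines, 29 in 3, 17 in 2, 3 in 1 and 0 in none. The background was 6.98% of genes lower in all 4 lines and 6.39% higher in all 4, where 0 SNORA genes stood. Over the tested members, HCT116 had 50 of 60 lower (background 54.4%), COLO741 44 (54.4%), SW620 40 (45.9%) and HT29 36 (51.4%). The medians were -0.14, -0.16, -0.09 and -0.05 in the same order. Without COLO741, whose ABCB5 transcript was lower in the positive array, 48 of 60 were below 0, of which 46 also were with all lines, and the median was -0.09. Without SW620, 52 were below 0 (47 of them also with all lines) with a median of -0.11, and with both lines left out 42 were (37 of them also with all lines), with a median of -0.08. Across the 61 genes the differences of any 2 lines correlated at between -0.17 and 0.32, as a description over genes that share arrays.

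**Figure D1:**
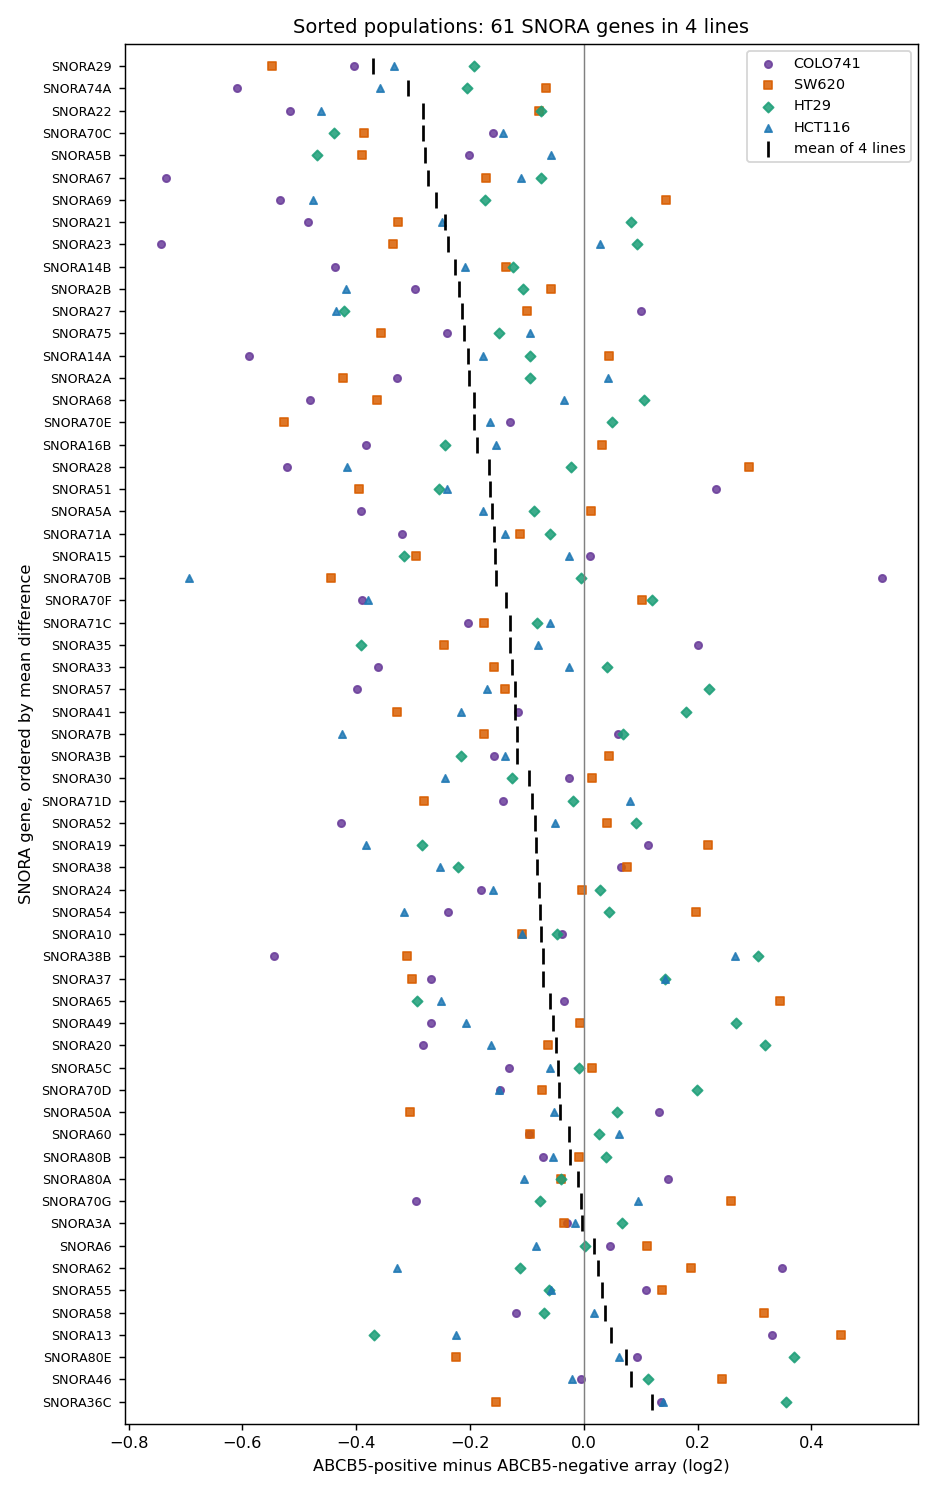
Difference of the ABCB5-positive minus the ABCB5-negative array (x axis, log2) for each of the 61 SNORA genes (y axis), with 1 point for each line and a bar for the mean of the 4 lines. Most means lie left of 0, between -0.37 and 0.12, while points of single lines fall on both sides of 0 for most genes.

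The member with the smallest unadjusted p was SNORA29, which lies in the TCP1 gene. It read 6.87, 8.29, 7.79 and 8.10 in the negative arrays of COLO741, SW620, HT29 and HCT116. In the positive arrays it read 6.47, 7.74, 7.60 and 7.77. All 4 positive arrays were below their partners, although the groups overlapped because the lines differ more than the sorts. The mean difference was -0.37 ± 0.15 (SD, n = 4), 1.29-fold lower in the positive arrays. That p was 0.0023 in limma and the adjusted p 0.898, so it was not called.

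SNORA74A, which lies in the span of MATR3, read 8.20, 9.50, 10.37 and 10.30 in the negative arrays and 7.59, 9.43, 10.17 and 9.94 in the positive ones, in the same line order. The difference was largest in COLO741 (-0.61) and smallest in SW620 (-0.07). The mean difference was -0.31 ± 0.23 (SD, n = 4). SNORA75, in NCL (the gene of nucleolin, an abundant nucleolar RNA-binding protein), read 8.90, 10.17, 10.60 and 10.30 in the negative and 8.66, 9.81, 10.45 and 10.21 in the positive arrays. All 4 lines again were lower, with a mean difference of -0.21 ± 0.11 (SD, n = 4).

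SNORA22 read 12.51, 12.09, 12.10 and 11.30 in the negative arrays and 11.996, 12.01, 12.02 and 10.83 in the positive ones. COLO741 and HCT116 gave differences of -0.52 and -0.46, and SW620 and HT29 both -0.08. SNORA14B, in TOMM20 (a subunit of the mitochondrial import receptor), read 8.91, 8.86, 8.89 and 8.67 in the negative and 8.47, 8.73, 8.76 and 8.46 in the positive arrays. Each positive array was below its partner, and the groups overlapped only in that the SW620 and HT29 positive arrays lay above the HCT116 negative one. The mean difference was -0.23 ± 0.14 (SD, n = 4). SNORA5B, in TBRG4, read 7.33, 7.38, 7.75 and 7.37 against 7.13, 6.99, 7.28 and 7.32. SNORA70C, in ASTN2, stayed under 7.50 on all 8 arrays, at 6.91, 7.17, 7.41 and 7.02 against 6.75, 6.78, 6.97 and 6.87. The mean differences of SNORA5B and SNORA70C were both -0.28, with SDs of 0.19 and 0.15 (n = 4).

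The other members lower in all 4 lines were SNORA2B, SNORA71A, SNORA67, SNORA71C and SNORA10, with mean differences of -0.22, -0.16, -0.27, -0.13 and -0.08. SNORA67 rested on COLO741, at -0.73 against -0.17, -0.08 and -0.11 in the others. At the other end SNORA36C was 0.12 ± 0.21 (SD, n = 4) higher on average, with SW620 at -0.15.

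Most genes of the other short RNA classes also had a mean difference below 0, and none passed the test. Over all genes tested, 52.0% were lower and 6.98% were lower in all 4 lines. Of the 67 tested C/D small nucleolar RNAs (SNORD genes outside the imprinted clusters, which guide methylation of ribosomal RNA), 63 were lower and 26 were lower in all 4 lines, with a median of -0.20. The 14 SCARNA genes, guide RNAs of the Cajal body, had a median of -0.07 and 10 were lower. Among 118 other short RNA genes 84 were lower, with a median of -0.05. The 61 ribosomal protein genes had a median of -0.02 and 41 were lower. The 61 ribosomal protein genes held no called gene either, and the part of RNA length or recovery in the result was not tested. Across members the correlation of the difference with gene length was -0.01 and with mean level -0.04, as a description over genes. Most members had a length near the median of 134 bases, so the value for length says little.

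**Figure D2:**
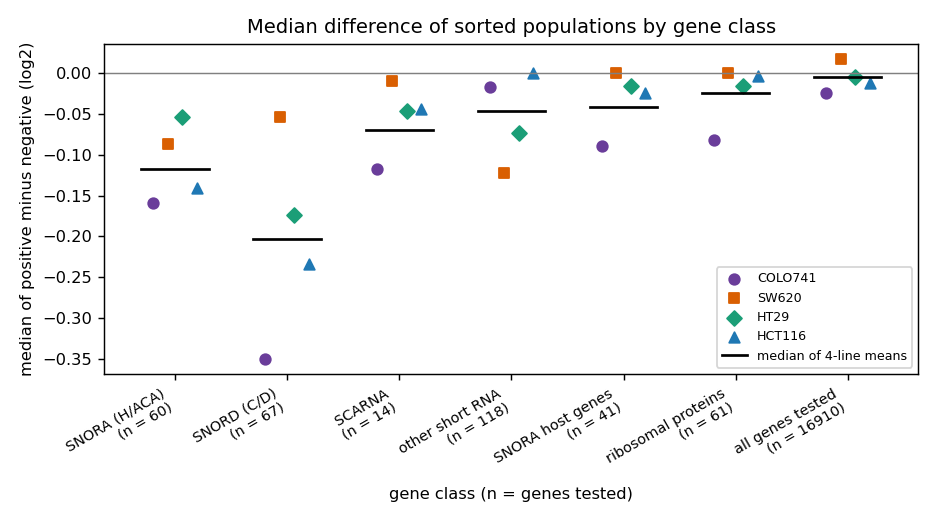
Median of the positive minus negative difference (y axis, log2) for SNORA genes and 6 other gene classes (x axis, with the genes tested), with 1 point for each line and a bar for the median of the 4-line means. The SNORA bar is at -0.12 and the SNORD bar at -0.20, while all genes tested are at -0.00.

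More members were called between lines than between sorted populations. The range of the 4 line means was 0.25 to 2.38 over the 61 genes, with a median of 0.80, against 0.64 over all genes tested. It exceeded the size of the mean sort difference in 61 of 61, but the measures are unlike. A range takes the extremes of the lines, while signed differences cancel in a mean, so this count cannot rank lines against sorts. Each line was tested against the mean of the other 3 with limma, the population as a covariate and adjustment over all genes within each line. Of 60 members 52, or 86.7%, were called in at least 1 line, where the background was 73.1%. The 4 comparisons share arrays, so their values are given side by side.

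COLO741 had 11 members higher and 25 lower, against a background of 23.7% and 26.0%, so that 18.3% and 41.7% of members were called. SW620 had 14 higher and 15 lower (background 22.1% and 22.9%) and HCT116 13 higher and 12 lower (21.7% and 20.5%). HT29 had 23 higher and 1 lower (19.7% and 23.2%), or 38.3% and 1.67% of members. These counts differed with brightness. Among the 41 members with a mean of at least 7.50, COLO741 had 11 higher and 15 lower and SW620 7 and 15. Among the 19 dimmer tested ones they had 0 and 10, and 7 and 0. HT29 had 20 and 0 of the brighter and 3 and 1 of the dimmer members, and HCT116 9 and 9, and 4 and 3. The shares over all genes split in this way are not given here. The median differences were -0.20, 0.04, 0.26 and 0.01 in COLO741, SW620, HT29 and HCT116, beside all-gene medians of -0.04, -0.05, 0.00 and 0.04. HT29 was the highest line for 26 of 61 genes and the lowest for 2, where all genes gave 25.1% and 21.9%; COLO741 was the lowest for 28, where all genes gave 30.3%. Without COLO741 the HT29 count was 25 higher and 7 lower, SW620 had 9 higher and 18 lower, and HCT116 8 higher and 14 lower. Without SW620 the COLO741 count was 5 higher and 24 lower. The shares over all genes with a line left out are not given here, so these counts have no background. The positive array with raised leukocyte markers is 1 of the 2 SW620 arrays, and the part of those cells in the SW620 values was not tested. Other short RNA classes leaned the same way in HT29 and COLO741. In HT29, 33 of 67 tested SNORD genes were called higher and 4 lower. For 14 SCARNA genes the counts were 6 and 0, and for 118 other short RNA genes 30 and 2. In COLO741 the counts of these classes were 1 and 46, 2 and 6, and 4 and 21. The lean was not particular to short RNAs. The 61 ribosomal protein genes had 2 higher and 32 lower in COLO741 and 11 and 3 in HT29. The 14 listed ribosome synthesis genes had 1 and 11 in COLO741 but 0 and 3 in HT29. In HCT116 SNORD genes had 37 higher and 3 lower.

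**Figure D3:**
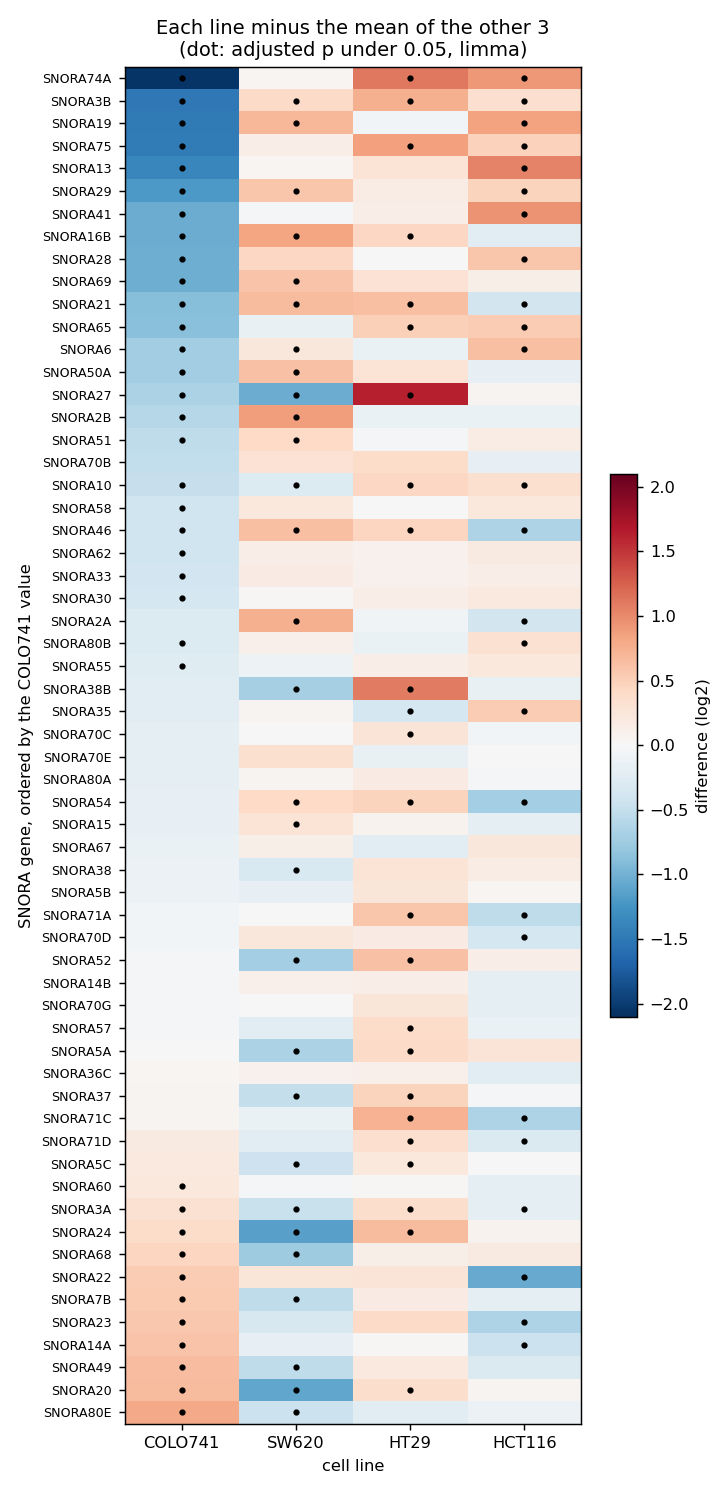
Difference of each line from the mean of the other 3 (colour, log2, red higher and blue lower) for the 60 tested SNORA genes (rows), ordered by the COLO741 value, with a dot where the adjusted p of limma was under 0.05. The HT29 column is nearly all red where dotted, with 23 higher and 1 lower, and COLO741 has 25 lower and 11 higher.

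SNORA74A, whose 8 values are given above, had the widest range of line means. Both COLO741 arrays, at 8.20 and 7.59, were below the other 6, and the line was 2.06 ± 0.11 lower (SE; 4.16-fold, adjusted p = 1.95e-05 in limma). It was higher in HT29 by 1.11 and in HCT116 by 0.91. Both rested on COLO741: without it the HT29 difference was 0.48, still called, and the HCT116 difference 0.25, not called. Without HT29 the HCT116 difference was 1.44.

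SNORA27, in RPL21, read 8.60 and 8.70 (negative, then positive array) in COLO741, 8.41 and 8.31 in SW620, 10.59 and 10.16 in HT29 and 9.41 and 8.98 in HCT116. The HT29 arrays were the 2 highest, 1.64 ± 0.12 above the other lines (SE; 3.11-fold, adjusted p = 9.12e-05 in limma). It was lower in SW620 by 1.05, or by 0.56 without HT29. SNORA13, in the span of EPB41L4A, read 7.22 and 7.55 in COLO741, 8.23 and 8.68 in SW620, 8.82 and 8.45 in HT29 and 9.31 and 9.08 in HCT116. It was 1.04 higher in HCT116, or 0.65 without COLO741, and 1.38 lower in COLO741.

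COLO741 was also low for SNORA3B (-1.5) and SNORA75 (-1.48). SNORA19 was measured 1.49 lower there, but at 5.83 and 5.94 it lay near the olfactory receptor median, so that its true difference is not fixed by these values. The 4 largest of the 11 members higher in COLO741 were SNORA80E (0.80), SNORA20 (0.66), SNORA49 (0.64) and SNORA14A (0.61). In SW620 the largest falls were SNORA24 (-1.13), SNORA20 (-1.08) and SNORA27, then SNORA68 (-0.75). The largest measured rises there were in dim probe sets: SNORA2B (0.88) and SNORA16B (0.83) were under 7.50 on all 8 arrays, SNORA2A (0.75) on the 6 arrays of the other lines and SNORA19 (0.69) on 6 of 8, so their sizes and order are uncertain. Without COLO741 SNORA16B was at 0.54, still called, and SNORA19 at 0.22 was not. Without HCT116 SNORA19 was at 1.10. In HT29 SNORA38B (1.09) and SNORA75 (0.85) followed SNORA27 and SNORA74A, although SNORA75 was at 0.41 without COLO741. SNORA35 (-0.36) was the only member lower. SNORA35 lies in the serotonin receptor gene HTR2C, was near the dim limit at 6.88 to 7.78 and was not called without SW620, at -0.39, without HCT116, at -0.21, or with no filter on level. In HCT116 SNORA22 (-1.06), SNORA54 (-0.72), SNORA46 (-0.66) and SNORA71C (-0.65) were lower and SNORA41 (0.94) and SNORA19 (0.85) were among those higher. SNORA46 was under 7.50 on all 8 arrays and SNORA41 on the 6 arrays of the other lines, and SNORA19 was not called without COLO741, at 0.40. The narrowest ranges over the 8 arrays belonged to SNORA80A, SNORA60 and SNORA70G.

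Members that share 1 host gene were compared next. In all, 7 hosts held 16 members between them, which gives 28 pairings of a host and a line, and at least 2 members were called in 14. The called members moved the same way in 9 and in opposite ways in 5, all 5 in TCP1 and RPL27A. The opposite calls depended in part on single lines. Without COLO741 there were 9 the same way and 0 opposite among 21 pairings, and without SW620 4 and 1. Leaving out a line also removes its own pairings, so part of that fall is fixed by the design. Without HT29 there were 5 and 4 and without HCT116 9 and 4. In both settings TCP1 and RPL27A stayed opposite in COLO741 and SW620. TCP1, a subunit of the cytosolic chaperonin, holds SNORA20 and SNORA29. SNORA20 read 10.84 and 10.55 in COLO741, 9.42 and 9.36 in SW620, 10.32 and 10.64 in HT29 and 10.32 and 10.16 in HCT116. It was highest where SNORA29 was lowest: COLO741 was 0.66 higher for SNORA20 and 1.21 lower for SNORA29, and SW620 was 1.08 lower and 0.59 higher. TCP1 itself was at -0.24 in COLO741 and 0.24 in SW620, neither of them called without the other line. Without SW620 the COLO741 value of SNORA20 was 0.33, and without COLO741 the SW620 value of SNORA29 was 0.21, both not called.

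RPL27A, a protein of the large ribosomal subunit, holds SNORA3A and SNORA3B. SNORA3A read 13.03 and 12.997 in COLO741, 12.44 and 12.40 in SW620, 13.02 and 13.08 in HT29 and 12.63 and 12.61 in HCT116. SNORA3B read 8.91 and 8.75, then 10.23 and 10.28, 10.63 and 10.41, and 10.30 and 10.16. They were opposite in COLO741 (0.32 and -1.5), SW620 (-0.47 and 0.40) and HCT116 (-0.21 and 0.36) and both higher in HT29 (0.37 and 0.75). Without COLO741 the SNORA3B values were -0.12 in SW620 and -0.16 in HCT116, of the same sign as SNORA3A and not called, and 0.28 in HT29. Without SW620 the SNORA3A values in COLO741 (0.18) and HT29 (0.23) were not called. RPL27A itself was lower in COLO741 by 0.79. By contrast SNHG17, a long non-coding RNA, holds SNORA71A, SNORA71C and SNORA71D. All 3 were higher in HT29 (0.59, 0.74 and 0.35) and lower in HCT116 (-0.53, -0.65 and -0.30). SNORA71D was not called in HT29 without HCT116, at 0.28, nor in HCT116 without COLO741, at -0.27, or without HT29, at -0.21. Of the 61 genes, 23 belong to 8 lettered families such as SNORA3, SNORA5, SNORA70 and SNORA71, whose copies can be near-identical, so that probes may read more than 1 copy and their values are uncertain.

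**Figure D4:**
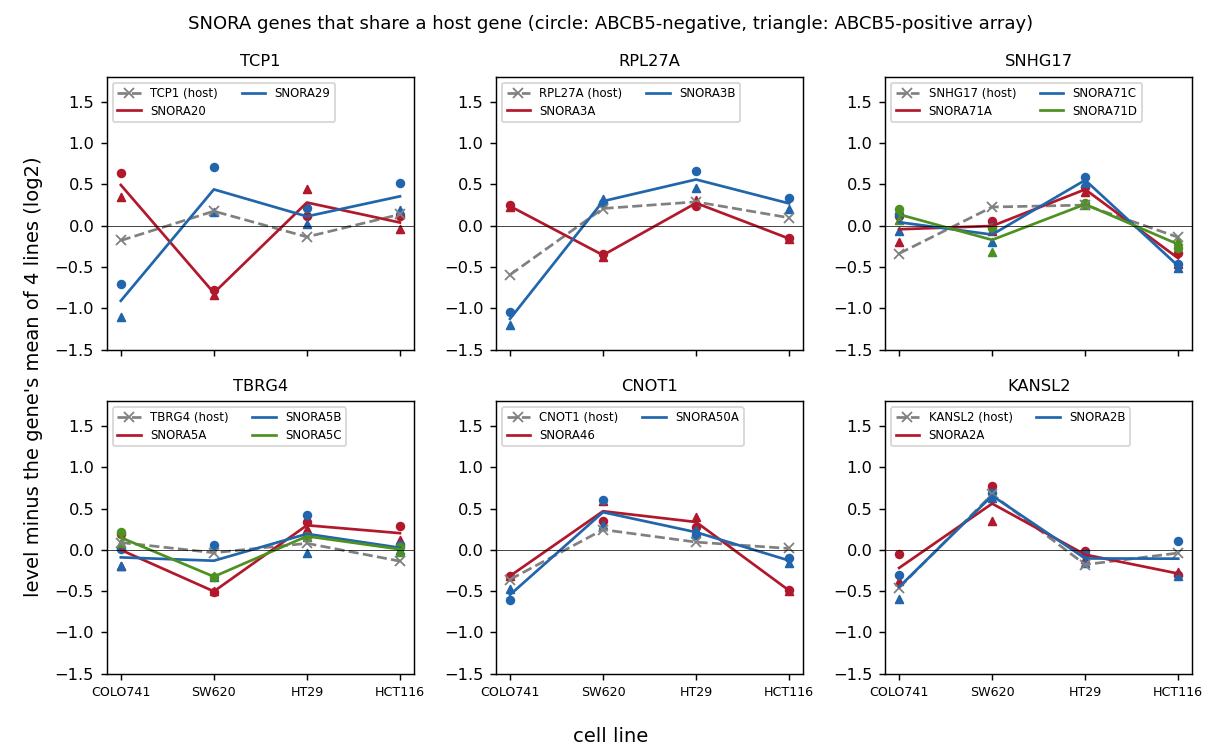
Level of each SNORA gene minus its own mean over the 4 lines (y axis, log2) in 6 hosts that hold several, by line (x axis), with circles for negative and triangles for positive arrays and a dashed line for the host gene. In TCP1 the SNORA20 and SNORA29 lines cross between COLO741 and SW620, and in SNHG17 the 3 SNORA71 lines run together.

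Every member lay inside the span of another gene in the annotation (RefSeq, GRCh38.p14), and for 50 of them that host, 42 genes in all, was measured. Where several genes held a member, which was so for 9, the longest was taken and strand was not checked. In the sort 44 of the 50 members were lower, 33 with a lower and 11 with a higher host. Of the 42 hosts themselves, 29 were lower. The member lay below its host in 40 of 50, and the medians were -0.11 for members and -0.04 for hosts. In the line comparisons 48 members had a tested host, and there were 93 member calls. The host was called in the same direction in 40, in the opposite direction in 7 and not called in 46. These calls share arrays, and a host that holds several members counts more than once. COLO741 gave 18 of its 27 in the same direction, SW620 7 of 23, HT29 7 of 20 and HCT116 8 of 23. Of the 41 tested hosts, 7 were called higher and 21 lower in COLO741 in any case. The host counts were 13 and 5 in SW620, 8 and 4 in HT29 and 12 and 4 in HCT116. Without COLO741 the same direction was found in 4 of 23 in SW620 and 2 of 25 in HT29, and without HT29 COLO741 had 5 in the opposite direction in place of 3. SNORA13, 1.38 lower in COLO741 where EPB41L4A was 1.75 higher, is among the 9 with several holding genes. It also lies in the span of the antisense gene EPB41L4A-AS1, which was 0.91 lower in COLO741, in the direction of SNORA13. SNORA2B rose with KANSL2 in SW620 (0.88 and 0.90). SNORA75 fell by 1.48 in COLO741 where NCL fell by 0.60.

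**Figure D5:**
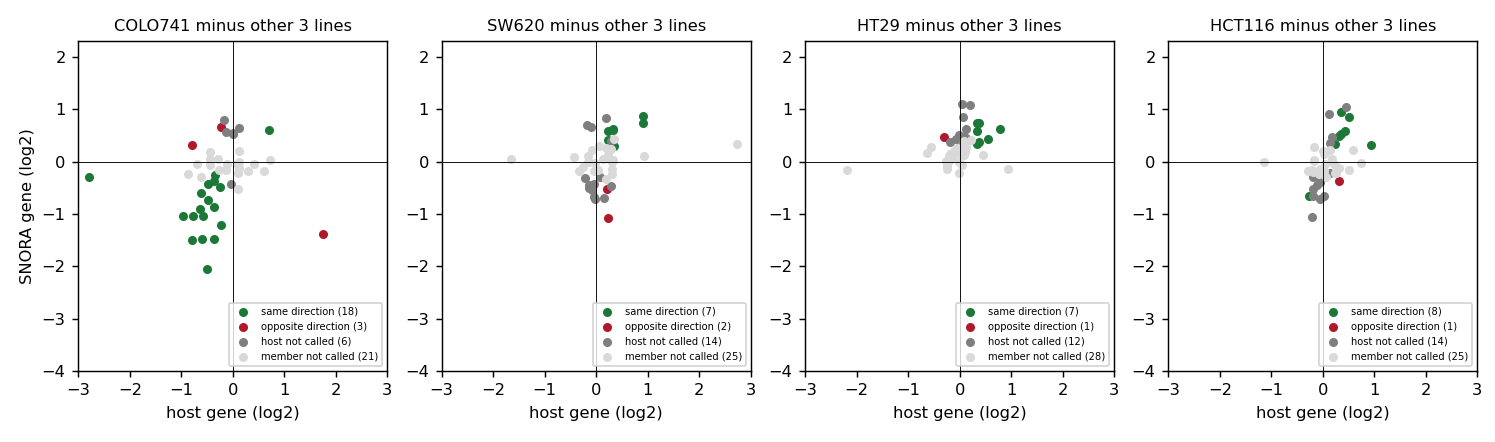
Difference of each line from the other 3 for a SNORA gene (y axis, log2) against that of its host (x axis, log2), 1 panel for each line, coloured by whether the host was called in the same direction, the opposite one or not called. COLO741 has 18 members in the same direction as the host and 3 in the opposite one.

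Hosts of snoRNAs are known for starts that begin with a run of pyrimidines, the terminal oligopyrimidine type shared with ribosomal protein genes. The start of 43 of the 52 distinct hosts was found in the RefSeq promoter table. A first base C followed by 4 bases that are each C or T, on the gene's own strand only, was seen in 12 of 43, or 27.9%, and in 4.04% of 27305 promoters. It was in 7 of 7 ribosomal protein hosts and in 5 of 36 others. Of the hosts printed below, MATR3 and TOMM20 were taken only as the longest gene that holds the member. SNORA74A also lies in the spans of SNHG4 and LOC124901081, and SNORA14B in that of LOC105379283. The starts of those other genes are not given here. The windows of 4 hosts whose members are described above show the run, and those of TCP1 and NCL do not; 15 bases before and 15 from the start are printed 5′ to 3′, with the run in capitals.
RPL27A (chr11:8682777-8682806, + strand): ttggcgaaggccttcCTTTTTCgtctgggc
RPL21 (chr13:27251543-27251572, + strand): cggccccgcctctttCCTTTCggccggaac
MATR3 (chr5:139274086-139274115, + strand): ctcggctcccggctgCCCTTTCCCCTCCgg
TOMM20 (chr1:235128823-235128852, - strand): tggcgtgtgctcggcCTTTCTgtgttcctg
TCP1 (chr6:159789588-159789617, - strand): ggtggtgtgttacccagtagctcctgggac
NCL (chr2:231464470-231464499, - strand): tcagtctttcgcctcagtctcgagctctcg
The 14 members in hosts with the run had a median sort difference of -0.12, and the 37 in hosts without it also -0.12. In COLO741 against the other lines the medians were -0.42 and -0.17, and in HT29 0.37 and 0.25, as descriptions.

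Of the proteins that bind H/ACA RNAs, DKC1 (the pseudouridine synthase) read 12.26, 12.80, 12.93 and 12.26 in the negative and 11.98, 12.97, 12.89 and 12.18 in the positive arrays. It was lower in COLO741 by 0.55 and HCT116 by 0.42 and higher in SW620 by 0.47 and HT29 by 0.50, each called by limma. The SW620 call was lost without HCT116 (0.37) and the HCT116 call without HT29 (-0.28). GAR1 was lower in COLO741 (-0.30, or -0.18 and not called without HCT116) and higher in HCT116 (0.42), and NHP2 was lower in SW620 (-0.40). NOP10 was called in no line. Among factors that load the particles, NAF1 was lower in COLO741 (-0.59) and HT29 (-0.49) and higher in HCT116 (0.80), and SHQ1 was lower in HT29 (-0.81). Without HCT116 neither NAF1 value was called (-0.37 and -0.25). TERC, the telomerase RNA that carries an H/ACA domain, was lower in SW620 (-0.63) and higher in HCT116 (0.45, or 0.27 and not called without SW620). In the sort none of these was called. The 13 genes listed as assembly factors were NAF1, SHQ1, NUFIP1, ZNHIT3, ZNHIT6, RUVBL1, RUVBL2, NOLC1, TCOF1, PIH1D1, RPAP3, COIL and WRAP53. They need not act on H/ACA RNAs alone. A mean below 0 was seen in 4 of 4 core proteins and 10 of 13 listed assembly factors, against 52.0% of all genes. The medians were -0.06 and -0.05. Most were lower in COLO741, HT29 and HCT116, but SW620 had only 1 of 4 and 1 of 13 lower, with medians of 0.10 and 0.07.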

How the data were processed

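The authors deposited 1 log2 value for each of 33297 probe sets on each of 8 arrays, with 0 missing. That the scale is log2 follows from the values, 2.99 to 15.24, as no label says so. Affymetrix Expression Console made them, per the submitters' processing notes; for its version, summarisation and normalization the sources used here give nothing. Array medians lay between 8.03 and 8.10, so no further normalization was applied. Per the labels' protocols RNA came from a silica column kit, which recovers RNA as short as these incompletely; a probe set cannot tell a mature snoRNA from its host's intron.

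Probe sets with 1 gene (19460; 1754 name several and 12083 none) were used, the highest mean per gene. Genes with a mean under the median of 360 olfactory receptor probe sets (5.73) were left out. limma 3.58.1 in R 4.3.3 fitted all 16910 genes (lmFit, eBayes, two-sided, Benjamini-Hochberg, threshold 0.05): positive minus negative with the line as a block, since both populations of a line carry its name, and each line minus the other 3 with population as covariate. It was tested on simulated data. Tables were made with Python 3.11.15. Alternatives were another normalization, filter, probe set rule and variance model, and each line left out. Hosts were to be on the same strand, but the table holds no strand, so position alone was used.

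Named genes were up to 12 per direction with the smallest p among those of 1 sign in all lines, the 6 brightest, the 4 largest calls per direction and line, those that share a host, and the 3 widest and narrowest ranges. Members and lists were chosen with earlier results of these data known. SNORA sequences were not used here.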

Additional observations from a re-analysis of the deposited data

Results flagged for a closer look

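The named members gave 120 groups of 4 values (40 members, both populations and their difference). Of these, 6 held a value farther from the rest than Dixon's 95% limit allows. Chance gives about 1 in 20 in groups not chosen by their values, which 6 of 120 does not exceed. Some members were named for a large difference of 1 line or a wide range, so that rate does not strictly apply. The gap divided by the range was 0.98 for SNORA22, whose HCT116 positive array (10.83) lay under 11.996, 12.01 and 12.02. It was 0.947 for SNORA68 in the SW620 positive array, at 11.47 against 12.32 to 12.36, the array with raised leukocyte markers, whose part was not tested. It was 0.867 for SNORA29 and 0.849 for SNORA3B, both lowest in the COLO741 positive array, at 6.47 and 8.75. It was 0.871 for SNORA5B, highest in the HT29 negative array at 7.75, and 0.854 for the sort difference of SNORA67, lowest in COLO741 at -0.73.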

How the results depend on the processing

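No SNORA gene was called between sorted populations under any setting run. The median difference stayed between -0.15 and -0.08, and 50 of 60 were lower with quantile normalization and 49 with centred arrays, against 52. The count at an unadjusted p under 0.05, 9 as reported, was 0 with no replicate block, where 27 of all genes passed, 5 with ordinary least squares and 5 to 12 with a line left out (5 without HCT116). The count lower in every line, 12 as reported, was 14 to 24 with a line left out, 21 without SW620 and 24 without HT29, where fewer lines have to match, and 32 without COLO741 and SW620 together, a setting chosen after seeing the data. With ordinary least squares the members called in COLO741, SW620, HT29 and HCT116 numbered 23, 16, 11 and 14, against 36, 29, 24 and 25; the cause was not tested. With the line as the contrast no fit without the replicate block was possible; with the population term dropped, also added later, the counts were 37, 28, 25 and 25. With the strict filter COLO741 had 12 higher and 15 lower and SW620 8 and 15. Shares over all genes are not given here for these counts of line calls or of members lower in every line. A change in the members and one in all genes cannot be told apart there. All 165 alternative values of the 12 members lower in every line kept their direction and side of the threshold, but this shows little. With a line left out, their direction was fixed by how they were chosen. In the sort, 0 genes of any kind were called under the settings run, so the side of the threshold could not change. Of 339 values for the 29 largest line calls, 323 kept direction and side, 16 lost the call and 0 turned. Over all members called, 2 turned in SW620 (SNORA3B and SNORA6) and 2 in HCT116 (SNORA3B and SNORA75) without COLO741, at -0.12, -0.0035, -0.16 and -0.0042, all 4 no longer called. The number of arrays limits the precision.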
